A study of Homo sapiens with 9 samples.

Results

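The genes described here are 10 negative regulators and outputs of the circadian clock, BHLHE40, BHLHE41, PER1, PER2, PER3, CRY1, CRY2, NR1D1, NR1D2 and DBP. They were chosen by name, with earlier results of these data known, and matched by Entrez number. All 10 were found among the 16750 genes of the deposited table. PANC-1 is an established human line of pancreatic duct carcinoma cells. Lentiviral plasmids were used to derive stable clones that carried SLC22A10 (SLC22A10_OE), SLC22A15 (SLC22A15_OE) or no insert (vector), and all of them, vector clones included, were selected with and kept in puromycin in medium with fetal bovine serum. SLC22A10 and SLC22A15 belong to a family of membrane carriers of organic ions and zwitterions. Each group had 3 RNA sequencing libraries from total RNA depleted of ribosomal RNA. The labels speak of clones without saying how many clones or separate cultures stand behind the libraries, so the spread on which p-values rest is that among these libraries and may be technical. Sample titles end in A1, A2 and B1 in every group, and what these endings stand for is not known here. How long after passage or feeding the cells were harvested is not known here.

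In the clock of mammalian cells, the activators CLOCK (or its paralog NPAS2) and ARNTL (BMAL1) bind E-box sequences as a dimer and switch on the genes of their own repressors. PER and CRY proteins form a complex that blocks the dimer, BHLHE40 and BHLHE41 (DEC1 and DEC2) compete for the same E-boxes, and NR1D1 and NR1D2 (REV-ERB alpha and beta) repress ARNTL through elements that ROR receptors also use. DBP, itself driven from E-boxes, passes the rhythm on to genes with D-box sequences. In a culture whose cells are out of phase with each other, bulk RNA gives an average over the cycle. Cells shifted in phase, fewer cells expressing a gene and less RNA per cell cannot be told apart in such data.

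The recovered library totals ran from 28.4 to 42.9 M reads (1 M is 1e+06). Levels are in CPM, reads per 1e+06 reads of the scaled library, as mean ± SD over the 3 libraries of a group. The 10 genes held between 145 and 2742 reads in a library, which gives a counting SD of 8.30% at the lowest and 1.91% at the highest. Counting error alone is covered by these values. Fold changes are differences of log2(CPM + 1), which understates the change of low genes, from limma with Benjamini-Hochberg adjustment over the 14554 genes tested, and a gene is called at an adjusted p under 0.05. SLC22A10 stood at 80.5, 91.4 and 84.4 CPM in SLC22A10_OE libraries 1 to 3, at 0 in SLC22A15_OE libraries and at 0, 0.0281 and 0 CPM in vector libraries. SLC22A15 averaged 75.9 ± 2.48 CPM in SLC22A15_OE, against 3.84 ± 0.357 in SLC22A10_OE and 6.11 ± 0.571 in vector (SD, n = 3 each). Of 7 ductal and epithelial markers, 5 were in the table, with a summed level of 532.5 to 592.6 CPM in SLC22A10_OE, 286.7 to 321.4 in SLC22A15_OE and 435.6 to 475.1 in vector. Among these, KRT7 stood under 1 CPM in every library. Of 12 markers of other cell types only the endothelial cadherin CDH5 was in the table, at 6.24 to 7.65 CPM in SLC22A10_OE, 2.52 to 2.86 in SLC22A15_OE and 0.901 to 1.45 in vector, and its part in the results was not tested. In 1 library of each group, SLC22A10_OE 3, SLC22A15_OE 1 and vector 1, mitochondrial ribosomal RNA took a smaller share of the reads, 0.0151%, 0.0111% and 0.00958%, against 0.0454% to 0.0843% in the other libraries. BHLHE40, PER1, CRY2 and DBP were highest and NR1D2 lowest in that library in all 3 groups. The share of all genes placed so is not given here.

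The 250 bases before the RefSeq transcription start of each gene (GRCh38.p14) were searched on both strands for the binding sequences through which these genes act on one another. The E-box was searched as CACGTG and the E'-box, which differs from it in the last letter, as CACGTT. The D-box was searched as TTANGTAA, where N is any base, and the core of the ROR and REV-ERB element as TAGGTCA. The E-box was in 3 of the 10 windows and in 6.34% of all 35116 promoter windows of that length. The E'-box was in 3 of 10 and in 4.55% of all windows, the D-box in 1 of 10 and in 1.98%, and the ROR element core in 0 of 10 and in 1.61%. No matches overlapped each other in these 10 windows. The 7 matches are printed here within 30 bases of the gene's own strand, 5′ to 3′, with the motif in capitals, because they show where these letters stand near the starts. Binding at them was not measured.
BHLHE40, E-box 245 bases before the start, chr3:4979187-4979216, plus strand: tccaaCACGTGagactcatgtgatgaagcc
BHLHE41, E-box 48 bases before, chr12:26125068-26125097, minus strand: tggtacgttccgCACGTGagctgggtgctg
PER1, E-box 173 bases before, chr17:8152560-8152589, minus strand: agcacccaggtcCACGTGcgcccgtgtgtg
PER2, E'-box 197 bases before, chr2:238288790-238288819, minus strand: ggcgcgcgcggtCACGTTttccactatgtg
CRY1, E'-box 89 bases before, chr12:107093621-107093650, minus strand: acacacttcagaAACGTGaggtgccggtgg
NR1D1, E'-box 168 bases before, chr17:40100740-40100769, minus strand: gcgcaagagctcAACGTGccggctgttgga
PER3, D-box 177 bases before, chr1:7784103-7784132, plus strand: gagcccgcgcgTTATGTAAcgcgccccggg
The sites of BHLHE40, BHLHE41 and CRY1 lie inside an exon of the same gene in the GENCODE 29 annotation, which places an earlier start for some transcripts. The windows of CRY2, NR1D2 and DBP held none of these letters, which says nothing of elements elsewhere in those genes. The part of the DBP window outside its annotated exons is printed because DBP had the widest range of levels.
DBP, chr19:48637439-48637629, minus strand: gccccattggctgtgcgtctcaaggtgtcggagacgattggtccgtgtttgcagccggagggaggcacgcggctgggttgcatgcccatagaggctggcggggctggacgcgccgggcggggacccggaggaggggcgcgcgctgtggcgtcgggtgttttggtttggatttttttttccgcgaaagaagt

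The 2 DEC repressors, which bind E-boxes and recruit deacetylases, did not move alike. BHLHE40 rose in SLC22A10_OE and fell in SLC22A15_OE. BHLHE41 fell in both lines and was the member that fell furthest. BHLHE40 (chromosome 3, 4979116 to 4985323, plus strand, GRCh38) stood at 23.3, 21.8 and 23.3 CPM in SLC22A10_OE libraries, at 10.4, 7.28 and 9.12 in SLC22A15_OE libraries and at 14.3, 12.8 and 12.7 in vector libraries. Every SLC22A10_OE library lay above every vector library and every SLC22A15_OE library below, with no overlap of any pair of groups. The log2 fold change was 0.74 ± 0.11 (SE) for SLC22A10_OE against vector (limma, Benjamini-Hochberg adjusted p = 3.98e-05) and -0.53 for SLC22A15_OE against vector (limma, adjusted p = 0.00276). BHLHE41 (chromosome 12, 26120026 to 26125127, minus strand) stood at 8.81, 9.13 and 9.75 CPM in SLC22A10_OE, at 4.60, 5.38 and 5.04 in SLC22A15_OE and at 26.2, 27.2 and 28.4 in vector. The 3 groups were again apart, with vector highest and SLC22A15_OE lowest. Its mean was 0.339 of the vector mean in SLC22A10_OE and 0.184 of it in SLC22A15_OE. BHLHE41 had a log2 fold change of -1.47 ± 0.08 (SE) in SLC22A10_OE (limma, adjusted p = 7.76e-09) and -2.23 in SLC22A15_OE (limma, adjusted p = 9.43e-10). BHLHE41 overlaps SSPN, a gene of the dystrophin complex on the other strand, over 3137 bases. SSPN averaged 7.53 ± 0.496 CPM in SLC22A10_OE, 4.09 ± 0.395 in SLC22A15_OE and 6.62 ± 0.523 in vector (SD, n = 3 each). Against vector it was not called in SLC22A10_OE at 0.16 (limma, adjusted p = 0.16) and fell in SLC22A15_OE at -0.58 (limma, adjusted p = 0.000835). Between the lines SSPN was lower in SLC22A15_OE at -0.745 (limma, adjusted p = 2.58e-05), beside -0.768 for BHLHE41. The part of shared reads in these values was not tested.

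**Figure D1:**
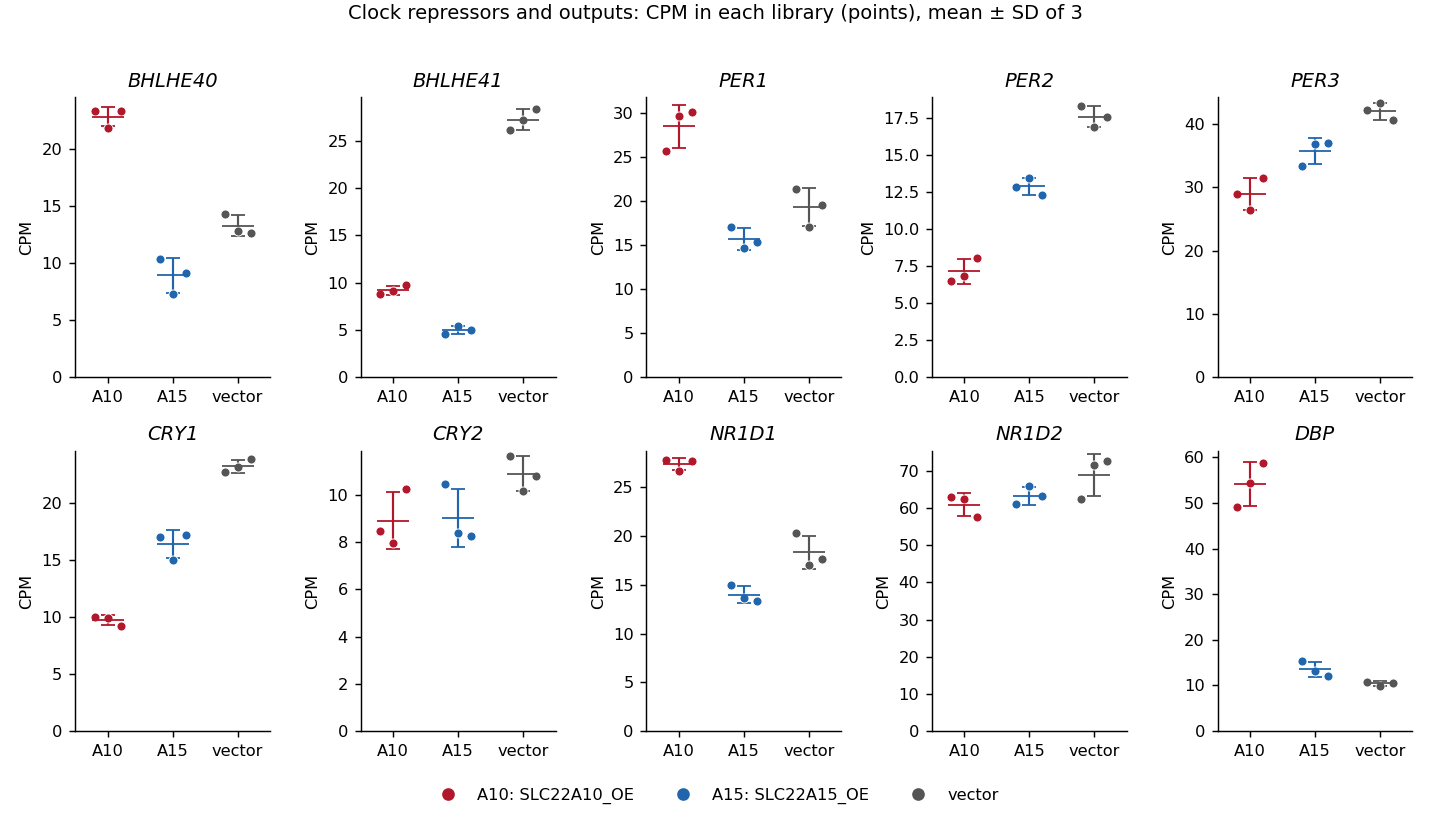
CPM of the 10 clock genes (y axes, linear from 0) in the 3 groups (A10 is SLC22A10_OE, A15 is SLC22A15_OE). Each point is 1 library and bars give the mean ± SD of 3; DBP averaged 54.2 CPM in SLC22A10_OE, 13.5 in SLC22A15_OE and 10.4 in vector, while BHLHE41 was highest in vector.

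The 3 PER genes, which encode the subunits whose turnover by casein kinase phosphorylation times the loop, split. PER2 and PER3 fell in both lines and lay lowest in SLC22A10_OE, whereas PER1 rose in SLC22A10_OE. PER1 (chromosome 17, 8140472 to 8156506, minus strand), also an early response gene to glucocorticoid and cyclic AMP, stood at 25.6, 29.7 and 30.1 CPM in SLC22A10_OE, at 17.1, 14.7 and 15.4 in SLC22A15_OE and at 21.4, 17.0 and 19.6 in vector. The SLC22A10_OE libraries lay above all others, and the highest SLC22A15_OE library overlapped the lowest vector library. The difference of PER1 on the log2 scale was 0.54 ± 0.09 (SE) in SLC22A10_OE (limma, adjusted p = 0.000234). In SLC22A15_OE it was -0.28 with a 95% interval of -0.48 to -0.07 and was not called (limma, adjusted p = 0.0546), and over 18 alternative settings the adjusted p ran from 0.000934 to 0.178. It was lowest in a fit of the SLC22A15_OE and vector libraries alone with the column number as a block, named the paired fit here. The title endings A1, A2 and B1 recur in every group but are not matched to the numbers. Whether the number pairs these libraries was not tested. Each SLC22A15_OE library lay below the vector library of its number. The adjusted p was also under 0.05 with edgeR, DESeq2, median centring and a term for the libraries low in mitochondrial ribosomal RNA. So it was without SLC22A15_OE library 1 or vector library 2.

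PER2 (chromosome 2, 238244038 to 238290102, minus strand) stood at 6.54, 6.84 and 8.09 CPM in SLC22A10_OE, at 12.9, 13.5 and 12.3 in SLC22A15_OE and at 18.3, 16.9 and 17.6 in vector. No library of one group reached the range of another, and the order was vector, SLC22A15_OE, SLC22A10_OE from high to low. PER2 had a log2 fold change of -1.19 ± 0.09 (SE) in SLC22A10_OE (limma, adjusted p = 9.94e-08) and -0.42 in SLC22A15_OE (limma, adjusted p = 0.00399). PER3 (chromosome 1, 7784320 to 7845177, plus strand), the member of the family that knockout mice can largely do without for rhythmicity, stood at 28.9, 26.4 and 31.4 CPM in SLC22A10_OE, at 33.3, 36.8 and 37.0 in SLC22A15_OE and at 42.1, 43.2 and 40.5 in vector. It had the same order of groups as PER2, without overlap and over a narrower range. Its log2 fold change was -0.53 in SLC22A10_OE (limma, adjusted p = 2.98e-05) and -0.23 in SLC22A15_OE (limma, adjusted p = 0.0405). The call in SLC22A15_OE was lost when SLC22A10_OE library 1, any SLC22A15_OE library or any vector library was left out, or with the column number as a block over all 9 libraries, at adjusted p-values of 0.0558 to 0.138.

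Of the cryptochromes, the repressors that bind the activator dimer most directly, CRY1 followed PER2 in the order of its levels and CRY2 varied little. CRY1 (chromosome 12, 106991364 to 107093829, minus strand) stood at 10.1, 9.96 and 9.25 CPM in SLC22A10_OE, at 17.1, 15.03 and 17.3 in SLC22A15_OE and at 22.8, 23.2 and 23.9 in vector. The groups were apart, with SLC22A10_OE lowest and vector highest. CRY1 had a log2 fold change of -1.18 ± 0.08 (SE) in SLC22A10_OE (limma, adjusted p = 3.16e-08) and -0.48 in SLC22A15_OE (limma, adjusted p = 0.000553). CRY2 (chromosome 11, 45847118 to 45883248, plus strand) stood at 8.48, 7.96 and 10.3 CPM in SLC22A10_OE, at 10.4, 8.40 and 8.25 in SLC22A15_OE and at 11.7, 10.2 and 10.8 in vector. All pairs of groups overlapped. Its log2 fold change of -0.27 in SLC22A10_OE passed the threshold narrowly (limma, adjusted p = 0.0463, 95% interval -0.51 to -0.03), and that of -0.25 in SLC22A15_OE did not (limma, adjusted p = 0.139, 95% interval -0.49 to -0.01), although it did in the paired fit (limma, adjusted p = 0.0174). The call in SLC22A10_OE was lost without a filter on low values and when SLC22A10_OE library 1 or 2, SLC22A15_OE library 2 or 3, or vector library 1 or 3 was left out, at adjusted p-values of 0.0509 to 0.174.

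The REV-ERB receptors are nuclear receptors that bind heme and repress transcription. NR1D1 rose in SLC22A10_OE and fell in SLC22A15_OE, the pattern of BHLHE40, while NR1D2 stayed within overlapping ranges. NR1D1 (chromosome 17, 40092787 to 40100725, minus strand) stood at 27.8, 26.7 and 27.7 CPM in SLC22A10_OE, at 14.95, 13.7 and 13.3 in SLC22A15_OE and at 20.3, 17.1 and 17.6 in vector. The 3 groups did not overlap, and the vector libraries lay in the middle. The log2 fold change was 0.56 ± 0.08 (SE) in SLC22A10_OE (limma, adjusted p = 3.78e-05) and -0.37 in SLC22A15_OE (limma, adjusted p = 0.0049). NR1D2 (chromosome 3, 23945260 to 23980618, plus strand) stood at 62.9, 62.4 and 57.5 CPM in SLC22A10_OE, at 61.0, 65.9 and 63.2 in SLC22A15_OE and at 62.4, 71.6 and 72.6 in vector. Every pair of groups overlapped, vector library 1 lying among the libraries of both transporter lines. The log2 fold change was -0.17 in SLC22A10_OE (limma, adjusted p = 0.0348, 95% interval -0.31 to -0.03) and -0.12 in SLC22A15_OE (limma, adjusted p = 0.253, 95% interval -0.26 to 0.03), where the paired fit called it (limma, adjusted p = 0.0159). The call in SLC22A10_OE was lost when SLC22A10_OE library 2 or 3 or vector library 2 or 3 was left out, at adjusted p-values of 0.0534 to 0.145.

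NR1D1 shares 1081 bases at its end with THRA, which encodes the thyroid hormone receptor alpha on the other strand. The library kit keeps strand, but no source used here says whether the counting used it, and reads from the shared stretch cannot be assigned to one gene. THRA stood at 40.1, 39.3 and 43.1 CPM in SLC22A10_OE, at 18.9, 18.5 and 17.4 in SLC22A15_OE and at 19.4, 17.6 and 18.9 in vector. It was thus high in SLC22A10_OE alone, and its SLC22A15_OE and vector libraries overlapped. THRA rose in SLC22A10_OE with a log2 fold change of 1.09 (limma, adjusted p = 2.17e-08), and in SLC22A15_OE, where NR1D1 fell, the value was -0.03 with a 95% interval of -0.18 to 0.12. The part of shared reads in the rise of NR1D1 in SLC22A10_OE was not tested. NR1D2 shares 1332 bases at its start with NKIRAS1, a regulator of NF-kappa-B inhibition, which averaged 14.2 ± 0.889 CPM in SLC22A10_OE, 16.1 ± 1.03 in SLC22A15_OE and 17.5 ± 1.45 in vector (SD, n = 3 each). NKIRAS1 fell in SLC22A10_OE at -0.28 (limma, adjusted p = 0.0102) and was not called in SLC22A15_OE at -0.11 (limma, adjusted p = 0.403). The part of shared reads in the values of NR1D2 was not tested.

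**Figure D2:**
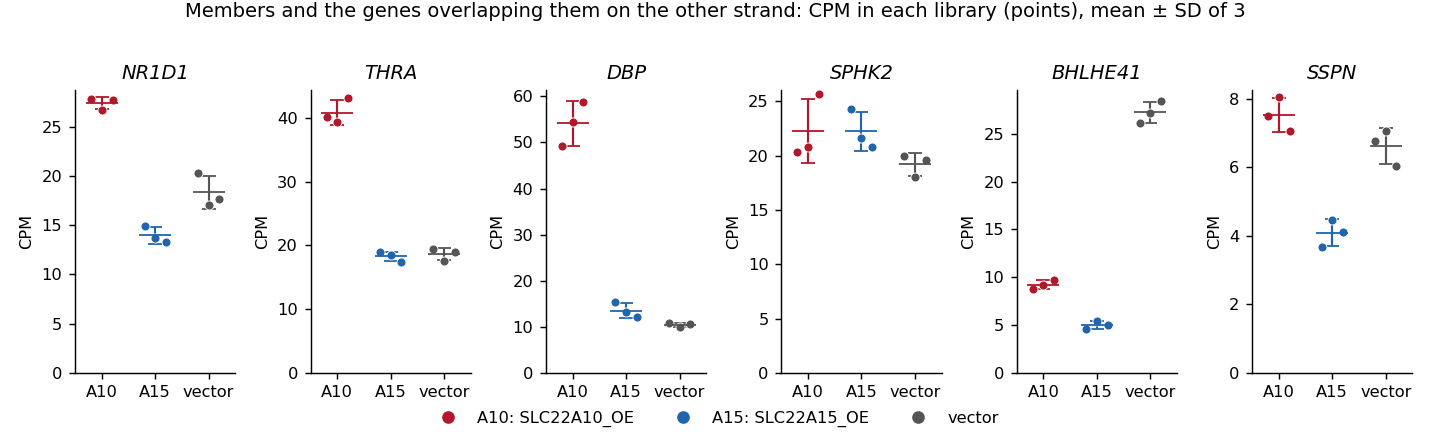
CPM (y axes, linear from 0) of NR1D1, DBP and BHLHE41, each beside the gene that overlaps it on the other strand, in the 3 groups. Points are libraries and bars give the mean ± SD of 3; THRA averaged 40.8 CPM in SLC22A10_OE, 18.3 in SLC22A15_OE and 18.6 in vector, and SPHK2 22.3, 22.3 and 19.2 CPM in the same order.

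DBP, a PAR bZIP activator and the best known output gene of the E-box loop, had the largest rise of the 10 genes. DBP (chromosome 19, 48630030 to 48637438, minus strand) stood at 49.2, 54.4 and 58.8 CPM in SLC22A10_OE, at 15.3, 13.1 and 12.1 in SLC22A15_OE and at 10.8, 9.93 and 10.5 in vector. The SLC22A10_OE libraries lay far above the others, and the SLC22A15_OE libraries lay just above the vector libraries without overlap. The mean was 5.19 times the vector mean in SLC22A10_OE and 1.30 times it in SLC22A15_OE. The log2 fold change was 2.27 ± 0.09 (SE) in SLC22A10_OE (limma, adjusted p = 4.84e-10). In SLC22A15_OE it was 0.34 with a 95% interval of 0.14 to 0.54 (limma, adjusted p = 0.019), and this call was lost without SLC22A15_OE library 1, vector library 2 or vector library 3, at adjusted p-values of 0.0533 to 0.0719. DBP shares 688 bases with SPHK2, a sphingosine kinase gene on the other strand, which was not called in SLC22A10_OE at a log2 fold change of 0.20 (limma, adjusted p = 0.0746). SPHK2 was called there in 2 of 16 alternatives, without SLC22A10_OE library 1 (limma, adjusted p = 0.0457) and with the term for mitochondrial ribosomal RNA (limma, adjusted p = 0.006). In SLC22A15_OE, also at 0.20, it was called with that term (limma, adjusted p = 0.0126) and in the paired fit (limma, adjusted p = 0.0102). The part of shared reads in the values of DBP was not tested.

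Among 10930 genes with a mean of at least 5 CPM, likeness of pattern was measured as the root mean square difference of log2(CPM + 1), centred per gene over the 9 libraries. Closest to DBP were SPEG at 0.110, LTBP4 at 0.118 and ZNF516 at 0.118. SPEG, a kinase of striated muscle, averaged 15.6 ± 1.32 CPM in SLC22A10_OE, 3.58 ± 0.478 in SLC22A15_OE and 2.71 ± 0.708 in vector (SD, n = 3 each), and LTBP4, a binder of latent TGF-beta, averaged 30.7 ± 4.35, 7.97 ± 0.921 and 6.14 ± 0.918 CPM in the same groups. For BHLHE40 the closest were DNAJC18 at 0.122, the actin capping gene CAPG at 0.125 and the netrin receptor gene UNC5A at 0.130. CAPG averaged 31.8 ± 1.26 CPM in SLC22A10_OE, 14.1 ± 1.85 in SLC22A15_OE and 23.0 ± 2.28 in vector. BHLHE41 had no gene as close, the nearest being SH3TC2 at 0.228, the Wnt receptor gene FZD8 at 0.326 and the homeobox gene HLX at 0.333. SH3TC2 averaged 32.3 ± 1.77 CPM in SLC22A10_OE, 24.7 ± 0.224 in SLC22A15_OE and 129 ± 1.31 in vector.

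Against vector, the 10 genes were all called in SLC22A10_OE, 4 higher and 6 lower, in a comparison that called 67.2% of all genes tested (34.7% higher, 32.5% lower). The median absolute log2 fold change was 0.65 over the 10 genes and 0.32 over all genes, and BHLHE41, PER2, CRY1 and DBP passed an absolute value of 1, which 8.68% of all genes did with a call. In SLC22A15_OE, 7 of the 10 were called, 1 higher and 6 lower, where 20.4% of all genes were called (10.8% higher, 9.58% lower). Here the median absolute log2 fold change was 0.35 over the 10 genes and 0.12 over all genes, and BHLHE41 alone passed 1, as 0.955% of all genes did. The paired fit called all 10 genes, 1 higher and 9 lower, and with them 40.7% of all genes, against 17.7% in the same 6 libraries without the block. Both libraries numbered 1 in that pairing are those low in mitochondrial ribosomal RNA. Both comparisons use the same 3 vector libraries. The 10 genes were chosen with earlier results of these data known, which limits what their counts say beside those of all genes. In the authors' deposited tables, 10 of the 10 genes had an FDR under 0.05 in SLC22A10_OE and 7 in SLC22A15_OE. Those tables rest on the same libraries, and their share of all genes under that FDR is not given here.

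Median centring of the libraries moved the log2 fold changes by -0.12 in SLC22A10_OE and -0.03 in SLC22A15_OE, and by 0.09 between the lines. With it, 3875 genes were higher and 6233 lower in SLC22A10_OE, against 5047 and 4728 without. In SLC22A15_OE these counts were 1351 and 1683, against 1572 and 1394, and between the lines 5798 and 3713, against 4484 and 4674. The directions of the 10 genes held in all 3 comparisons under this scaling.

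**Figure D3:**
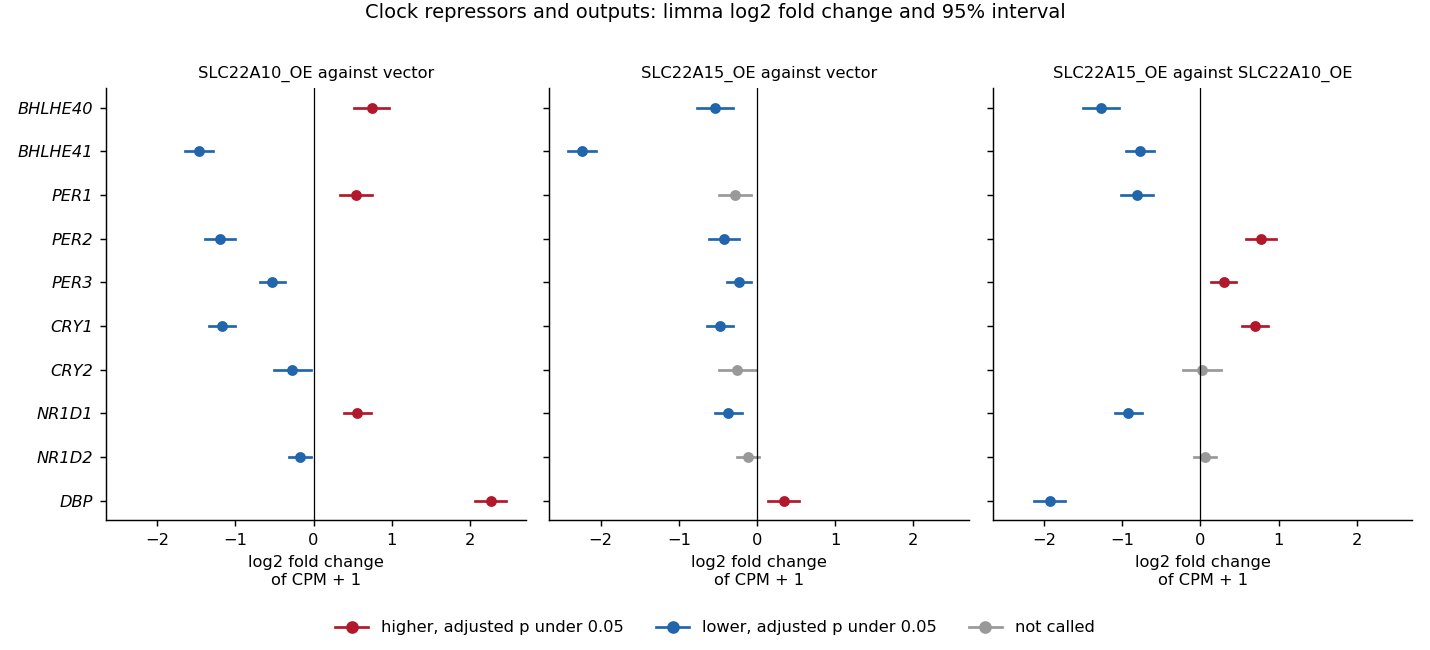
Log2 fold change of CPM + 1 (x axes) with its 95% interval for the 10 clock genes in the 3 comparisons, coloured by limma call. In SLC22A10_OE against vector 4 genes were higher and 6 lower, with DBP at 2.27 and BHLHE41 at -1.47, and in SLC22A15_OE against vector BHLHE41 stood at -2.23.

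Set directly against each other, the transporter lines differed in 8 of the 10 genes, 3 higher and 5 lower in SLC22A15_OE than in SLC22A10_OE, where 62.9% of all genes were called (30.8% higher, 32.1% lower). The median absolute log2 fold change was 0.77 over the 10 genes and 0.29 over all genes. DBP was lower in SLC22A15_OE at a log2 fold change of -1.93 (limma, adjusted p = 4.96e-09), and its mean was 0.250 of that in SLC22A10_OE. DBP and BHLHE40 were the members past an absolute value of 1, which 5.92% of all genes passed with a call. BHLHE40 was lower at -1.28 (limma, adjusted p = 4.7e-07), NR1D1 at -0.92 (limma, adjusted p = 6.21e-07), PER1 at -0.82 (limma, adjusted p = 8.32e-06) and BHLHE41 at -0.77 (limma, adjusted p = 4.4e-06). Higher in SLC22A15_OE were PER2 at 0.77 (limma, adjusted p = 7.13e-06), CRY1 at 0.70 (limma, adjusted p = 5.42e-06) and PER3 at 0.30 (limma, adjusted p = 0.00302). CRY2 at 0.02 (95% interval -0.22 to 0.26) and NR1D2 at 0.06 (95% interval -0.09 to 0.20) were not called, with limma adjusted p-values of 0.889 and 0.483. The fold changes between the lines use no vector library, while their p-values rest on a spread estimated over all 9 libraries, vector included.

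Over the 3 groups together, the moderated F of limma called 8 of the 10 genes and 72% of all genes, CRY2 (adjusted p = 0.0736) and NR1D2 (adjusted p = 0.0802) being left out. In 7 of the 10 genes no pair of groups overlapped, as in 21.1% of all genes tested. By pairs, the groups did not overlap in 8 of 10 genes for SLC22A10_OE and vector (69.2% of all genes), in 7 for SLC22A15_OE and vector (34.7%) and in 8 for the transporter lines (67.4%). The order of the means fell into few kinds. BHLHE40, PER1 and NR1D1 were highest in SLC22A10_OE and lowest in SLC22A15_OE. PER2, PER3, CRY1, CRY2 and NR1D2 were highest in vector and lowest in SLC22A10_OE, though the neighbours in that order overlapped for CRY2 and NR1D2. DBP and BHLHE41 had orders of their own, with vector lowest for DBP and highest for BHLHE41. E-box letters stood before BHLHE40, PER1 and BHLHE41, and E'-box letters before PER2, CRY1 and NR1D1. With 3 genes for each motif and windows of 250 bases, a relation of motifs to these orders was not tested.

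Per kilobase of merged exon, levels can be set side by side between genes. NR1D2 was the most abundant of the 10 in SLC22A15_OE, at 12.0 CPM per kb, and in vector, at 13.1. In SLC22A10_OE it came after DBP, which stood at 18.8 CPM per kb, against 4.70 in SLC22A15_OE and 3.63 in vector. DBP thus ranked 1 of 10 in SLC22A10_OE, 5 in SLC22A15_OE and 7 in vector. BHLHE41 ranked 8 in SLC22A10_OE at 2.41 CPM per kb, 10 in SLC22A15_OE at 1.31 and 3 in vector at 7.10. PER2 was among the lowest in all groups, at 1.12, 2.02 and 2.75 CPM per kb in SLC22A10_OE, SLC22A15_OE and vector.

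Of 30 further clock genes listed by role, 26 were in the table and 24 were tested. In SLC22A10_OE against vector, 14 were called, 5 higher and 9 lower, with a median absolute log2 fold change of 0.25. In SLC22A15_OE against vector 6 were called, 2 higher and 4 lower, with a median absolute value of 0.12, and between the lines 14, of which 9 were higher and 5 lower in SLC22A15_OE. These counts are read against the 67.2%, 20.4% and 62.9% of all genes called in the same comparisons, and none of the 3 stands far from them. With each library centred on its median, the higher and lower counts were 5 and 14, 2 and 7, and 13 and 4 in that order. Under that centring 69.5%, 20.8% and 65.3% of all genes were called.

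The activators moved unequally. ARNTL, the partner that REV-ERB receptors repress, averaged 25.4 ± 1.44 CPM in SLC22A10_OE, 32.4 ± 2.13 in SLC22A15_OE and 28.1 ± 2.37 in vector (SD, n = 3 each) and was called against vector in neither line, at log2 fold changes of -0.14 (limma, adjusted p = 0.126) and 0.20 (limma, adjusted p = 0.0879). In SLC22A10_OE it was called with median centring, at -0.26 (limma, adjusted p = 0.0109), and with the term for mitochondrial ribosomal RNA (limma, adjusted p = 0.031). In SLC22A15_OE it was called with that term (limma, adjusted p = 0.0066), without vector library 2 (limma, adjusted p = 0.0372) and in the paired fit (limma, adjusted p = 0.00213). Between the lines ARNTL was higher in SLC22A15_OE, at 0.34 (limma, adjusted p = 0.0019). Its paralog ARNTL2 had the group order of PER2 and CRY1, at 5.48, 5.81 and 6.80 CPM in SLC22A10_OE, 10.6, 10.7 and 10.1 in SLC22A15_OE and 15.4, 17.0 and 17.3 in vector. It fell in both lines, at -1.32 (limma, adjusted p = 4.92e-08) in SLC22A10_OE and -0.61 (limma, adjusted p = 0.000295) in SLC22A15_OE. CLOCK, a partner of ARNTL, averaged 96.9 ± 3.99 CPM in SLC22A10_OE, 138 ± 6.97 in SLC22A15_OE and 132 ± 5.56 in vector, and fell in SLC22A10_OE at -0.44 (limma, adjusted p = 9.89e-06). NPAS2, which can stand in for CLOCK, averaged 14.4 ± 1.76 CPM in SLC22A10_OE, 6.87 ± 0.880 in SLC22A15_OE and 6.20 ± 0.499 in vector. It rose in SLC22A10_OE at 1.09 (limma, adjusted p = 1.95e-06) and was not called in SLC22A15_OE at 0.12 (limma, adjusted p = 0.49).

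**Figure D4:**
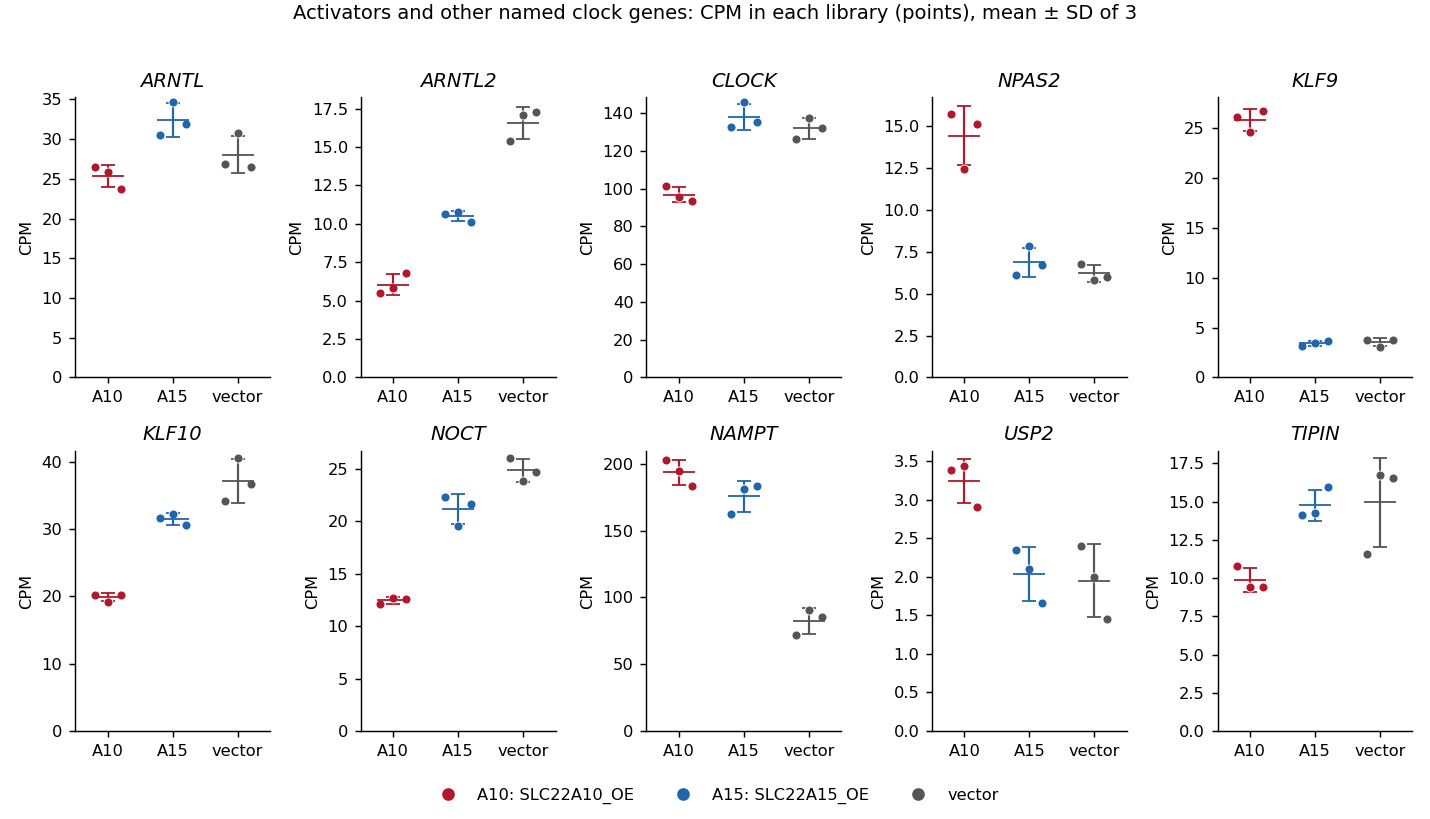
CPM (y axes, linear from 0) of the activators and of the other named clock genes in the 3 groups, with points for libraries and bars for the mean ± SD of 3. KLF9 averaged 25.8 CPM in SLC22A10_OE, 3.42 in SLC22A15_OE and 3.53 in vector, and NAMPT 194, 176 and 82.5 CPM in the same order.

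Among the outputs and modifiers, KLF9, a zinc finger factor that glucocorticoid receptor also induces, stood at 26.1, 24.6 and 26.7 CPM in SLC22A10_OE, 3.18, 3.46 and 3.64 in SLC22A15_OE and 3.75, 3.07 and 3.76 in vector. It was high in SLC22A10_OE alone, at a log2 fold change of 2.57 (limma, adjusted p = 1.88e-10), and -0.03 in SLC22A15_OE with a 95% interval of -0.23 to 0.17. NAMPT, the rate-limiting enzyme of NAD salvage, rose in both lines, averaging 194 ± 9.46 CPM in SLC22A10_OE, 176 ± 11.7 in SLC22A15_OE and 82.5 ± 9.75 in vector, with log2 fold changes of 1.23 (limma, adjusted p = 2.73e-08) and 1.09 (limma, adjusted p = 6.96e-07). Those values were not called different between the lines, at -0.14 (limma, adjusted p = 0.138), although that became a call with vector library 1 left out (limma, adjusted p = 0.0364) and with the term for mitochondrial ribosomal RNA (limma, adjusted p = 0.000839).

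KLF10 and NOCT, the gene of the NADPH phosphatase nocturnin, were lower in both lines. KLF10 averaged 19.9 ± 0.584 CPM in SLC22A10_OE, 31.5 ± 0.834 in SLC22A15_OE and 37.1 ± 3.21 in vector, and NOCT 12.5 ± 0.294, 21.2 ± 1.42 and 24.9 ± 1.08 CPM. In SLC22A10_OE the log2 fold changes were -0.86 for KLF10 (limma, adjusted p = 2.3e-07) and -0.94 for NOCT (limma, adjusted p = 1.47e-07). In SLC22A15_OE they were -0.23 (limma, adjusted p = 0.0349) and -0.22 (limma, adjusted p = 0.0455). Leaving out a library ended that call of KLF10 for any SLC22A15_OE library and for vector library 2 or 3, at adjusted p-values of 0.0678 to 0.152. It ended that of NOCT for every library except SLC22A15_OE library 1, at 0.0518 to 0.185. The block over all 9 libraries also ended them, at limma adjusted p-values of 0.0519 for KLF10 and 0.0641 for NOCT, as did the SLC22A15_OE and vector libraries alone without a block, at 0.0588 and 0.0697, and for NOCT the lack of a filter, at 0.0536. The paired fit called both, at limma adjusted p-values of 0.000393 and 0.00252. USP2, a deubiquitinase that acts on PER1 in mouse, averaged 3.24 ± 0.287 CPM in SLC22A10_OE, 2.04 ± 0.351 in SLC22A15_OE and 1.95 ± 0.472 in vector and rose in SLC22A10_OE at 0.53 (limma, adjusted p = 0.00353). TIPIN, the partner of TIMELESS at replication forks, averaged 9.88 ± 0.797 CPM in SLC22A10_OE, 14.8 ± 1.02 in SLC22A15_OE and 14.9 ± 2.93 in vector and fell in SLC22A10_OE at -0.54 (limma, adjusted p = 0.0017).

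**Figure D5:**
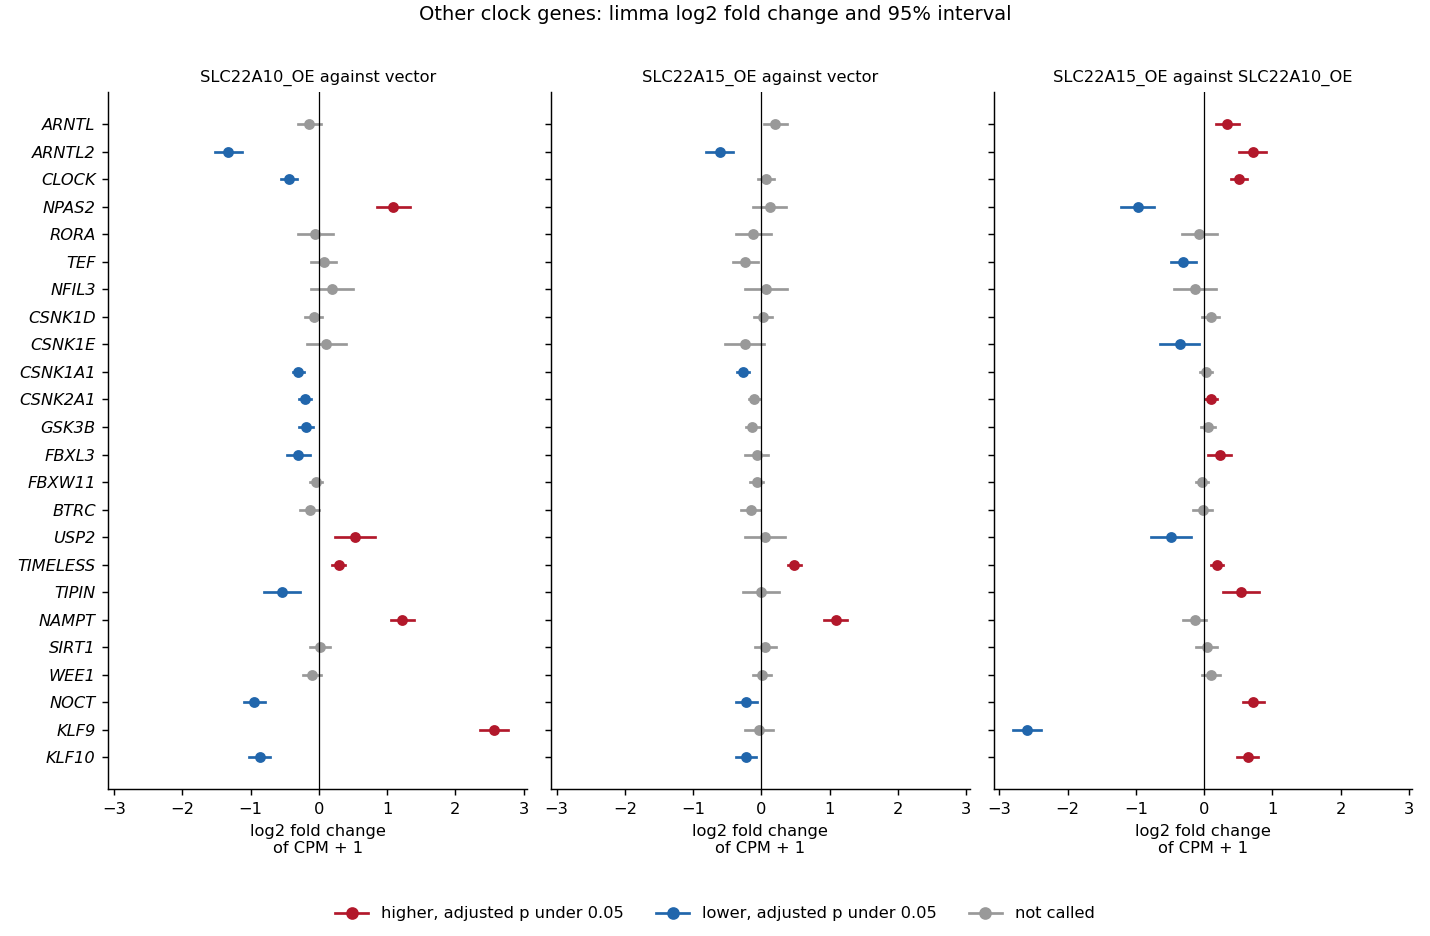
Log2 fold change of CPM + 1 (x axes) with its 95% interval for the 24 further clock genes tested, in the 3 comparisons, coloured by limma call. Against vector, 5 were higher and 9 lower in SLC22A10_OE, and 2 were higher and 4 lower in SLC22A15_OE.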

How the data were processed

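The authors deposited CPM per gene for 9 libraries. For each transporter line, per the file headers, a further table of the authors gave log2 fold changes and mean log2 CPM, a score (the F statistic), p-values with an FDR, and a −log10 of the p-value. edgeR and the builds hg38 and mm9 are named in the submitters' processing notes, while aligner, counting program, strand setting and annotation release were not given in the sources used. Columns carried a group and a number from 1 to 3, by which libraries are named. All CPM values lay within 0.1 of a whole number of recovered reads (100%), and 1 CPM was 27.8 to 43.4 reads, a counting SD of 15.2% to 19%.

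The 10 genes and the clock lists were chosen with earlier results of these data known. limma 3.58.1 (R 4.3.3, moderated variances with a mean trend) was fitted to log2(CPM + 1) of all 9 libraries with 6 residual degrees of freedom, on the 14554 genes that reached 1 CPM in 3 or more libraries. Two-sided p-values were adjusted by Benjamini-Hochberg over all genes tested, threshold 0.05. Beside the 10 genes, the text names ARNTL, ARNTL2, CLOCK, NPAS2, other listed clock genes called with an absolute log2 fold change of at least 0.5, genes overlapping a member on the other strand, and the 3 nearest patterns of the 3 members of widest range. Alternatives were edgeR 4.0.16 and DESeq2 1.42.0 on recovered reads, median centring, a pseudocount of 0.25, no filter, a replicate block over all 9 libraries, a term for the libraries low in mitochondrial ribosomal RNA, and leaving out each library. Deviations from group means over 5000 genes were correlated between same-numbered libraries. SLC22A15_OE with vector gave 0.89, 0.74 and 0.61 for numbers 1, 2 and 3. Differently numbered libraries were not compared, and library 1 of both groups is the one low in mitochondrial ribosomal RNA. Whether the numbers pair these libraries was thus not tested. Titles end in A1, A2 and B1 in every group, and no label ties these endings to the numbers. SLC22A10_OE gave -0.76 to 0.33 with the other groups. A fit of the 6 SLC22A15_OE and vector libraries with the number as a block, and the same without it, were added after the data were seen. The fit was also run on simulated reads with 200 genes changed in SLC22A10_OE. That is far fewer than were called there in the data, so changes as broad as these were not simulated. Positions are from GENCODE 29 (GRCh38) and promoter sequences from RefSeq (GRCh38.p14), which held all 10 genes.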

Additional observations from a re-analysis of the deposited data

How the results depend on the processing

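Of 30 pairs of a gene and a comparison, 22 kept their direction and their side of the threshold under all alternatives (16, and 18 for SLC22A15_OE against vector), and calls of CRY2, NR1D2, PER3, DBP and PER1 that did not are given with those genes. In SLC22A15_OE, CRY2 was also called without SLC22A15_OE library 1 (limma, adjusted p = 0.0474) and NR1D2 without vector library 1 (limma, adjusted p = 0.0365). With 1 library left out, 8 to 10 of the 10 genes were called in SLC22A10_OE against vector (61.2% to 68.5% of all genes), 5 to 7 in SLC22A15_OE against vector (14.2% to 24.1%), 8 between the lines (56.6% to 66.2%) and 8 to 9 by the F test. With a term for the libraries low in mitochondrial ribosomal RNA, 10 of the 10 genes were called in SLC22A15_OE, 1 higher and 9 lower, and 11 of the further clock genes against 6 without it, as the share of all genes called went up to 38.5%, against 20.4% without it. The paired fit of SLC22A15_OE and vector called 10 of the 10 genes, 12 of the further clock genes and 40.7% of all genes. The cause of these larger counts was not tested. The sign of values near 0 changed with the library left out. For SLC22A15_OE against SLC22A10_OE they ran from -0.079 to 0.12 for CRY2 and from -0.060 to 0.10 for SPHK2, which stood at -0.00095 in DESeq2. For SLC22A15_OE against vector they ran from -0.11 to 0.010 for KLF9, from -0.066 to 0.0036 for THRA, from -0.16 to 0.084 for TIPIN and from -0.078 to 0.16 for USP2. With the column number as a replicate block over all 9 libraries, 10, 6 and 8 of the 10 genes were called in the 3 comparisons, where 66.6%, 19.1% and 62.6% of all genes were. That block takes in SLC22A10_OE, whose same-numbered correlations with the other groups ran from -0.76 to 0.33. Against vector in SLC22A15_OE, the paired fit changed no other call of the 10 genes than those of PER1, CRY2 and NR1D2. Depth limits these genes least of all at NR1D2 and most at BHLHE41, whose 145 reads in 1 library give a counting SD of 8.30%.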

Other observations

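A pair of listed clock genes fell below the filter on low values and was not tested. CIART, a repressor of the CLOCK and ARNTL dimer, stood at 0.0517, 0.114 and 0 CPM in SLC22A10_OE libraries, at 0.381, 0.728 and 0.484 in SLC22A15_OE libraries and at 0.215, 0.619 and 0.451 in vector libraries. All SLC22A10_OE libraries were below all others, at levels where a library holds few reads, and the SLC22A15_OE and vector libraries overlapped. Among the genes tested, SLC22A10_OE and vector did not overlap in 69.2%, nor the transporter lines in 67.4%. TSC22D3, the glucocorticoid-induced leucine zipper gene, stood at 1.19, 0.830 and 0.863 CPM in SLC22A10_OE, at 0.191, 0.338 and 0.138 in SLC22A15_OE and at 0.185, 0.450 and 0.663 in vector. Its SLC22A10_OE libraries were above all others, at levels where a library holds few reads.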
